A study of Sus scrofa with 55 samples.

Results

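Oocytes from the middle of antral follicle growth, at stages 2 and 3, were compared with oocytes from its ends, at stages 1 and 5, to find transcripts that peak or dip on the way rather than move steadily in one direction. The stage in each oocyte's label placed it on a side. In this way 44 of the 55 oocytes entered, 23 on the middle side and 21 on the end side, and the 11 oocytes of stage 4 were left out. What defines a stage, such as the follicle's diameter, is not given in the sources used here.

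All oocytes were labelled wild type and came from the ovaries of 4 pubertal gilts, young female pigs (Sus scrofa) of Landrace Yorkshire stock aged 208 to 210 days. Every gilt had received PMSG (5 IU), a mare serum hormone that drives antral follicles to grow, and its ovaries were taken 48 h later, so no group is unstimulated. Single oocytes were lysed, the genomic DNA was spun down, and the cytoplasmic messenger RNA was made into full-length cDNA by Smart-seq2 with 16 PCR cycles. Gilt 201 gave 7 middle oocytes (3 of stage 2, 4 of stage 3) and 6 end oocytes (3 each of stages 1 and 5). Gilt 205 gave 3 middle oocytes (1 of stage 2, 2 of stage 3) and 4 end oocytes (1 of stage 1, 3 of stage 5). Gilt 801 gave 5 middle oocytes (4 of stage 2, 1 of stage 3) and 3 end oocytes, all of stage 1, since it had none of stage 5. Gilt 803 gave 8 middle oocytes (4 each of stages 2 and 3) and 8 end oocytes (4 each of stages 1 and 5). The gilt is the replicate: adding up the counts of the oocytes that shared a gilt and a side gave 8 sums, and the sides were compared within gilts. P-values from 4 gilts measure the spread between these animals only.

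During antral growth the oocyte is held in the prophase of its first meiotic division while a fluid-filled cavity forms around it. It completes its store of messenger RNA for maturation and the first cleavages, and transcription then falls silent in the fully grown oocyte. Granulosa and cumulus cells pass metabolites, sterols included, to the oocyte through gap junctions, and the oocyte signals back with GDF9 and BMP15, growth factors of the TGF-beta superfamily. Cumulus cells adhere to the oocyte, so a library can hold RNA of both.

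Totals per oocyte lay between 151104 and 30486613 counts (median 11522106). The mitochondrially encoded share had a median of 73.9% over middle oocytes and 62.7% over end oocytes. Counts of GDF9 and ZP3, which define the oocyte, were present in all 44 libraries, but in 9 the granulosa and cumulus markers together held more counts than the oocyte-specific genes, against the label. These granulosa-rich libraries were 4 middle oocytes and 4 end oocytes of gilt 803 and 1 end oocyte of gilt 801, stage 1 oocyte 3. In gilt 803 these equal numbers are not equal shares of the summed counts. The deepest middle library, stage 3 oocyte 2, held 40.1% of the middle counts and was granulosa-rich. The deepest end library, stage 5 oocyte 4, held 39.1% of the end counts and was not. The flagged stage 1 oocytes 1 and 2 had only 343284 and 220085 counts. Summed granulosa and cumulus markers ran from 37.5 to 31919 CPM (counts scaled to the size of the library) over middle oocytes and from 26.9 to 13303 CPM over end oocytes. The granulosa-rich flag is relative to the oocyte-specific genes: stage 3 gilt 801 oocyte 1, not flagged, had 11404 CPM. The flagged stage 1 gilt 803 oocyte 2 had 4257 CPM. Refits without the granulosa-rich libraries therefore still hold libraries with much granulosa RNA. Of the 30 markers on that list, 23 passed the low-count filter, 2 were below it, AMH had no counts and the other 4, FOXL2 and CYP19A1 among them, had no matched identifier. In these sums, fewer cells of a type and less RNA per cell cannot be told apart.

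**Figure D1:**
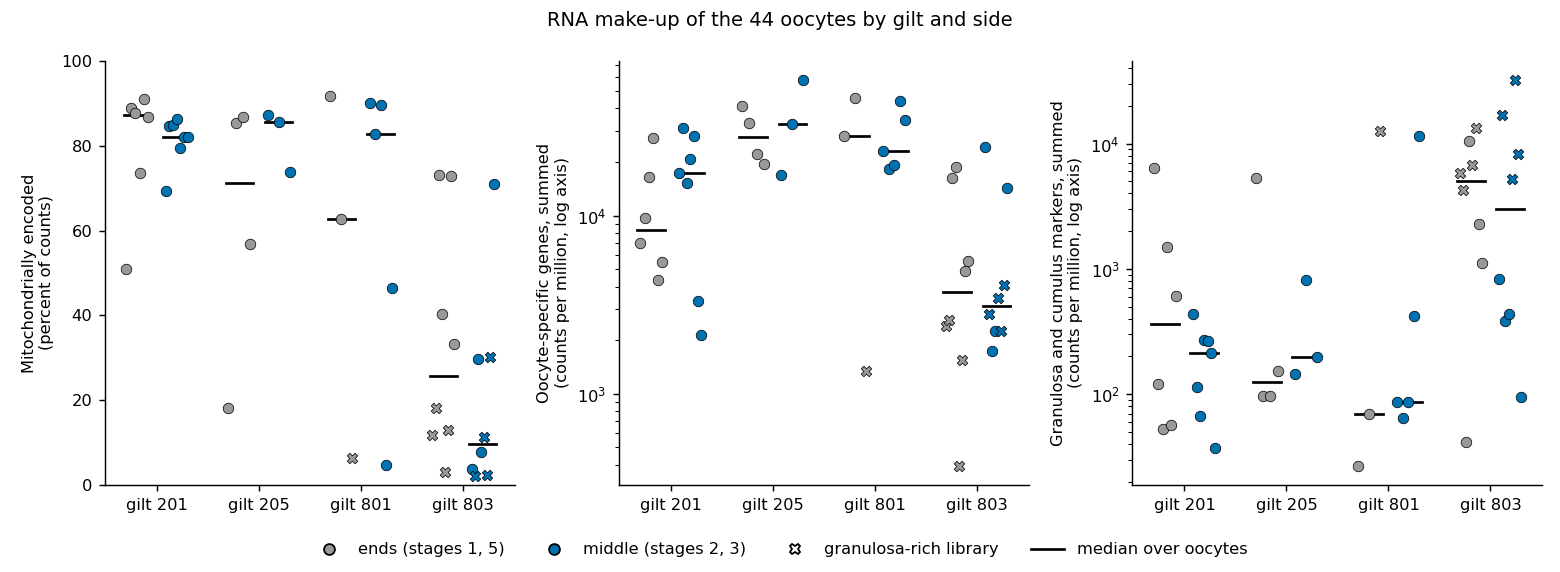
Each point is 1 of the 44 oocytes, placed by gilt and side; the panels show the mitochondrially encoded percent of counts and the summed CPM of the oocyte-specific genes and of the granulosa and cumulus markers (log axes), crosses mark the 9 granulosa-rich libraries and bars the median over oocytes. Gilt 803 holds 8 of the 9 crosses, and the granulosa level varies more between oocytes of a side than between the sides.

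Of 7 library measures, the oocyte-specific level and the total count were higher in the middle in each of the 4 gilts. The exact sign-flip permutation test over 4 gilts cannot give a p below 0.13, so it could call no measure. Mean log2 CPM of the oocyte-specific genes was 13.8 ± 1.31 in the middle and 13.3 ± 1.2 at the ends (SD, n = 4 gilts), higher in the middle in 4 of 4 gilts by 0.47 ± 0.44 (exact permutation p = 0.13, two-sided, adjusted p = 0.438 over 7 measures). Without the granulosa-rich libraries that difference was -0.146. The log10 total count was also higher in the middle in 4 of 4 gilts, by 0.0685 ± 0.0503 (exact permutation p = 0.13, adjusted p = 0.438). The granulosa and cumulus level was lower in the middle by 0.41 ± 0.58 log2 units (exact permutation p = 0.25), the theca and stroma level by 0.86 ± 1.24 (exact permutation p = 0.375). Each of these levels was lower in 3 of 4 gilts. Mitochondrially encoded RNA took 61.5 ± 29.2% of counts in the middle and 57.1 ± 19.4% at the ends, a difference of 4.38 ± 14.2 percentage points (exact permutation p = 0.625).

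Across genes, nothing passed the test of middle against ends. edgeR's quasi-likelihood test with gilt in the model called 0 of 13679 genes (0%) at a Benjamini-Hochberg adjusted p under 0.05. At an unadjusted p under 0.05 there were 87 genes higher in the middle (0.636%) and 293 lower (2.14%), 380 in all where 684 would be expected if no gene differed. limma with voom weights also called 0, with 511 at an unadjusted p under 0.05. DESeq2's Wald test called 245, of which 222 were lower in the middle, and on simulated counts of the same design it called 129 genes that had not been changed. The median SE of a fitted log2 change was 1.21 over all genes and 0.803 over those with a mean of 10 CPM or more. On the simulated counts edgeR recovered 0% of the genes given a 4-fold change, 12% at 8-fold and 44% at 16-fold. DESeq2 recovered 20%, 40% and 70% at these sizes, along with its 129 calls of unchanged genes. With these 4 gilts edgeR could thus miss most peaks and dips of these sizes. The values below are therefore descriptions, and each gene named has an adjusted p of 0.999 by edgeR over the 4 gilts.

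BMP15, a growth factor through which the oocyte acts on its cumulus cells, was higher in the middle in 3 of 4 gilts. Its summed level in the middle was 692 CPM in gilt 201, 988 in gilt 205, 440 in gilt 801 and 67.2 in gilt 803. At the ends it was 49.2, 97.1, 90.3 and 94.9 CPM in the same order. In gilts 201, 205 and 801 every middle sum lay above every end sum, while gilt 803 had less BMP15 in the middle than at the ends. The fitted log2 change was 2.37 ± 0.848 (SE), with an unadjusted p of 0.0151 by edgeR. It stayed between 1.76 and 2.80 when any 1 of the 44 oocytes was left out, although stage 2 gilt 801 oocyte 4 alone held 36.9% of its counts. Leaving out the granulosa-rich libraries gave 2.38, leaving out gilt 803 gave 3.16, and the change was 2.89 against stage 1 alone and 1.81 against stage 5 alone. Here and below, fits against stage 5 alone leave out gilt 801 on both sides, since it had no stage 5 oocyte.

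By stage, BMP15 averaged 68.6 ± 37.6 CPM at stage 1, 1023 ± 1282 at stage 2, 412 ± 458 at stage 3 (SD, n = 4 gilts each), 116 ± 157 at stage 4 (n = 4) and 119 ± 25.7 at stage 5 (n = 3). The highest stage was stage 2 in gilts 205, 801 and 803, at 2930, 518 and 153 CPM, and stage 3 in gilt 201, at 1082 CPM. Stage 4 fell outside the comparison, and there gilt 801 still held 344 CPM while gilts 201 and 803 held 8.9 and 14.6. GDF9, the partner of BMP15, was above the ends in 3 of 4 gilts. Its middle sums were 3262, 6366, 1182 and 204 CPM in gilts 201, 205, 801 and 803, against 1190, 1094, 1909 and 182 at the ends, a fitted change of 0.86 ± 0.764. KIT, the oocyte's receptor for a ligand made by granulosa cells, had a change of 0.55 ± 0.899 that became -0.65 without the granulosa-rich libraries.

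**Figure D2:**
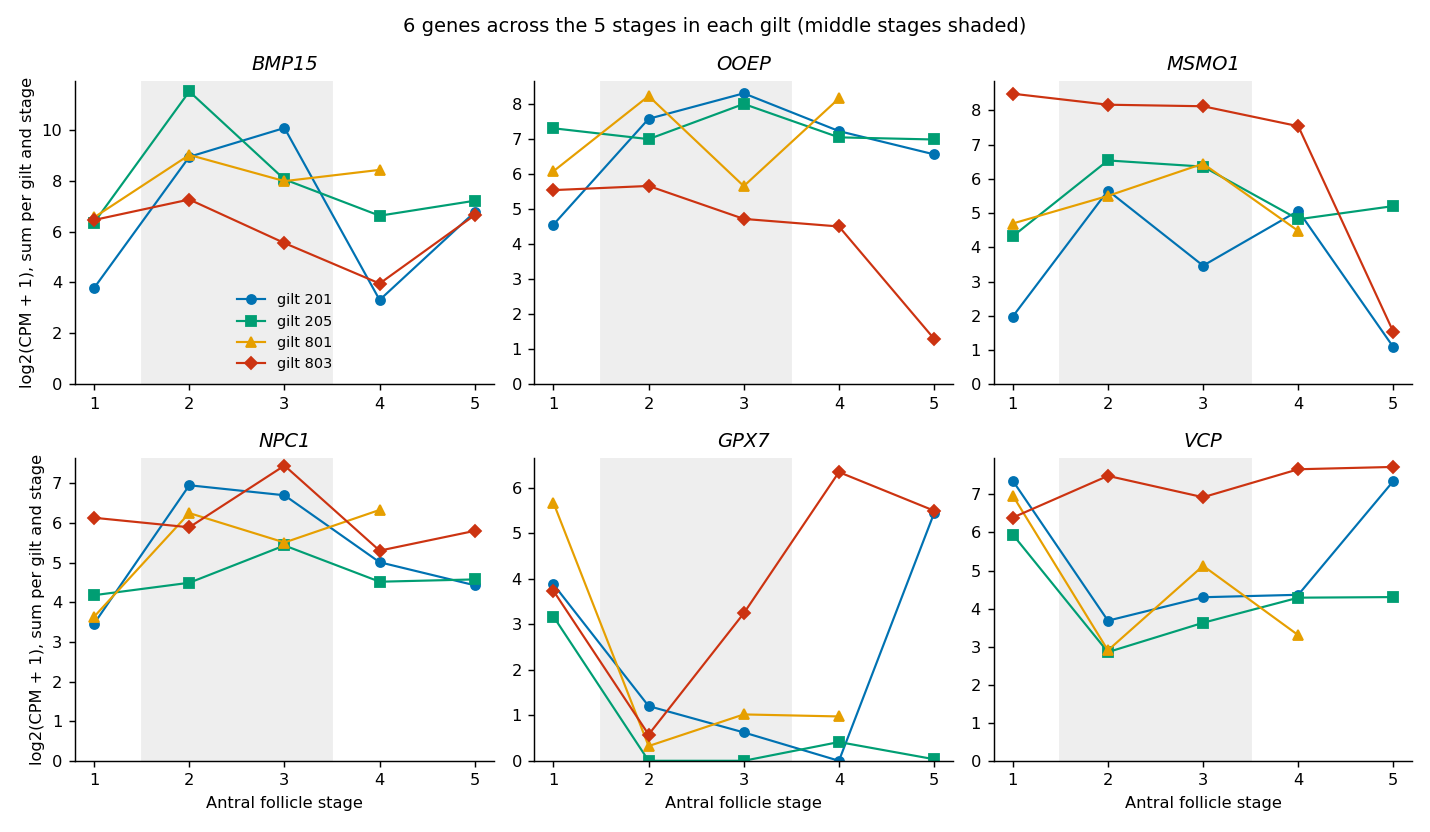
Level of 6 genes, as log2(CPM + 1) of the counts summed per gilt and stage, across antral stages 1 to 5; each line is a gilt, the middle stages are shaded and gilt 801 has no stage 5. Both middle stages lie above every end stage in 3 of 4 gilts for BMP15 and MSMO1, in 2 for NPC1 and in 1 for OOEP, and below in 4 for GPX7 and 3 for VCP, with gilt 803 apart from the other gilts for BMP15, MSMO1 and VCP.

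Oocyte-specific and maternal-effect genes as a list leaned to the middle. Of 30 listed genes, 19 had a matched identifier and passed the low-count filter, and all 19 had a positive fitted change, with a median of 0.78. Over all genes tested 45.7% were positive and the median was -0.11. In single gilts the list's median was 2.02 in gilt 201, 0.90 in gilt 205, 1.36 in gilt 801 and -0.50 in gilt 803, where the direction was the opposite. The median stayed at 0.78 without the granulosa-rich libraries, was 1.05 without gilt 803, 0.32 without gilt 201 and 0.67 with every oocyte weighted equally. No member passed the test, and 2 of 19 had an unadjusted p under 0.05, BMP15 and OOEP.

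Among subcortical maternal complex genes, whose proteins form an assembly under the oocyte's membrane that the early embryo needs, OOEP had 223, 199, 236 and 29.2 CPM in the middle of gilts 201, 205, 801 and 803. Its end sums were 48.3, 131, 64.1 and 7.88 CPM. OOEP was thus higher in the middle within each of the 4 gilts, although gilt 803 lay below the other gilts on both sides, and the fitted change was 1.65 ± 0.608. PADI6, a further member of that complex, had a change of 0.78 ± 0.667, and NLRP9, of the same family as the complex's NLRP5, 1.16 ± 0.71. Of the oocyte's transcription factors, LHX8 had 1.29 ± 1.08, FIGLA, which drives the zona pellucida genes, 1.29 ± 0.984 and NOBOX 0.22 ± 0.808. Among regulators of stored messages, ZAR1L had 1.30 ± 0.746, ZAR1 0.74 ± 0.702 and BTG4, which brings the CCR4-NOT deadenylase to maternal messages, 1.32 ± 0.766.

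Zona pellucida genes, which encode the egg coat, differed between the sides in opposite directions in different gilts. ZP3 had 20838, 31065, 4136 and 545 CPM in the middle of gilts 201, 205, 801 and 803, and 9833, 7030, 8976 and 970 at the ends. It was higher in the middle in gilts 201 and 205 and lower in gilts 801 and 803, a fitted change of 0.30 ± 0.889. ZP2 had 0.32 ± 0.801 and ZP4 0.31 ± 0.837, with the same split between gilts. The sign for ZP3 was negative with gilt-by-stage sums, in the quadratic fit over 5 stages, and without gilt 201 or gilt 205.

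**Figure D3:**
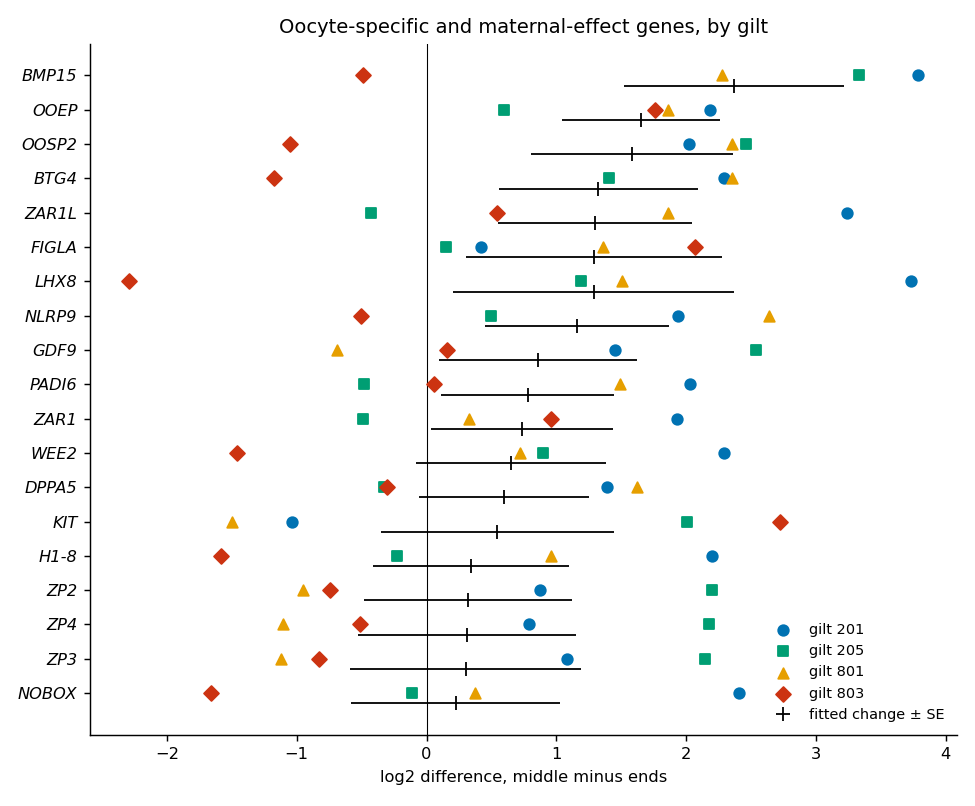
Difference of log2(CPM + 1) between middle and end sums for the 19 oocyte-specific and maternal-effect genes tested, 1 point per gilt, with the fitted log2 change and its SE beneath. All 19 fitted changes lie right of 0, while gilt 803 lies left of 0 for many genes, BMP15, LHX8, BTG4 and NOBOX among them.

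The genes of meiosis showed no shared direction. Meiotic arrest and resumption had 16 of 28 members positive (median 0.19), and spindle, kinetochore and checkpoint genes 18 of 35 (0.01). CCNB2, a B-type cyclin of the maturation-promoting factor, had 76.6, 84, 132 and 29.7 CPM in the middle of gilts 201, 205, 801 and 803 and 23.7, 55.3, 59.4 and 16.2 at the ends, higher in the middle within each of the 4 gilts. Its change was 1.08 ± 0.59. CCNB1, the other such cyclin, had 0.78 ± 0.739, and its middle value exceeded the end value in 3 gilts but not in gilt 803 (58.9 against 195 CPM). MOS, the kinase that starts the MAP kinase cascade of meiosis, had 0.53 ± 0.789, and MAP2K1, a kinase of that cascade, 1.27 ± 0.771. The kinetochore subunit DSN1 had 1.26 ± 0.919 and the mitotic kinesin KIF20A 0.90 ± 0.741. In the cohesin and recombination list, 14 of 25 positive (0.14), STAG2, a subunit of the cohesin ring, had -1.69 ± 0.722.

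Regulators of stored RNA were also split, with 19 of 38 members positive for storage and translational control (median -0.00) and 17 of 41 for deadenylation and decay (-0.07). TENT2, a cytoplasmic poly(A) polymerase, had 1.78 ± 1.02 and PABPC1, which binds poly(A) tails, -1.38 ± 0.85, a sign that turned to 0.11 without the granulosa-rich libraries. BTG1, a CCR4-NOT partner found in many cell types, had -1.59 ± 0.784, opposite to its oocyte relative BTG4. DNA methylation and demethylation genes had 11 of 20 positive (0.17). DNMT1, the maintenance methyltransferase that oocytes store in large amounts, had 6085, 1821, 2959 and 928 CPM in the middle of gilts 201, 205, 801 and 803 and 553, 1717, 850 and 3259 at the ends. Gilt 803 again went the other way, and the change was 0.90 ± 0.97. DNMT3A, a de novo methyltransferase, had 0.09 ± 0.804 and UNG, a uracil glycosylase, 1.96 ± 0.964. Histone-modifying enzymes had 19 of 59 positive (-0.31): KAT2A, a histone acetyltransferase, had 1.25 ± 0.74 and SETD2, which trimethylates histone H3 at lysine 36, -1.54 ± 0.917, with 53.6% of its counts in stage 5 gilt 803 oocyte 4.

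Sterol synthesis and handling held the gene of smallest p among those chosen as higher in every gilt. MSMO1, a methylsterol oxidase of cholesterol synthesis, had 28.6, 77.9, 49.0 and 263 CPM in the middle of gilts 201, 205, 801 and 803. Its end sums were 1.98, 23.2, 24.1 and 54.4 CPM. The middle sum exceeded the end sum within each gilt, but in gilt 803 the stage 1 oocytes held 359 CPM of MSMO1, above the 287 and 278 CPM of stages 2 and 3, and only stage 5 was low, with 1.88 CPM. The fitted change was 2.20 ± 0.686 (edgeR unadjusted p = 0.00693). Stage 3 gilt 803 oocyte 2, the granulosa-rich library with the highest granulosa level, held 45.9% of its counts, and without the granulosa-rich libraries the change was 1.74. Against stage 1 alone it was 1.5, against stage 5 alone 4.55 and with every oocyte weighted equally 1.26. NPC1, which moves cholesterol out of lysosomes, had 103, 33.2, 65.4 and 137 CPM in the middle and 13.3, 17.6, 11.1 and 55.4 at the ends, again higher in the middle within each gilt, a change of 1.94 ± 0.66 that was 1.30 without the granulosa-rich libraries.

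The cholesterol and isoprenoid list as a whole had 23 of 30 members positive and a median of 0.42, but the fits against each end alone differed. Gilt 801 was left out against stage 5 and kept against stage 1, so the gap between these fits mixes gilts with stages. Against stage 5 alone 28 of 30 were positive with a median of 1.70, against stage 1 alone 15 of 30 with -0.10, and with every oocyte weighted equally 13 of 30 with -0.09. HSD17B7, which acts on sterols and oestrone, had 1.63 ± 0.722 and STARD4, a cholesterol carrier, 2.34 ± 0.96, and both were positive in 4 of 4 gilts. CYP51A1, the lanosterol demethylase, had -0.01 ± 0.89. Stage 3 gilt 803 oocyte 2 held 69.2% of the STARD4 counts. The list's median was 1.25 in gilt 803 and from -0.06 to 0.33 in the other 3 gilts, 0.03 without gilt 803 and -0.11, with 13 of 30 positive, without the granulosa-rich libraries. The part of granulosa RNA in these values was not tested beyond that.

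The other genes with the smallest p among those higher in every gilt had diverse roles. The naming rule asked for a mean of at least 10 CPM, the same sign in 4 of 4 gilts and no oocyte with over 50% of the counts, so their shared sign is no finding. Genes with the same sign in every gilt made up 5.23% of all genes tested when higher and 6.21% when lower. Of 4773 genes with a symbol that met the level and single-oocyte limits, 379 were higher and 237 lower in every gilt, and the 12 of each with the smallest p are described. Next to MSMO1, NPC1 and OOEP stood DND1, an RNA-binding protein of germ cells (2.84 ± 1.06), RAD1, of the clamp that senses DNA damage (2.74 ± 1.03), and ELP2, an Elongator subunit (2.05 ± 0.759). Membrane proteins were CD40, a receptor of the tumour necrosis factor family (1.97 ± 0.692), TSPAN15, a tetraspanin (2.19 ± 0.843), SLC17A1, a phosphate and urate transporter (1.80 ± 0.671), and SLC25A13, the mitochondrial aspartate and glutamate carrier (1.60 ± 0.617). AKTIP, an AKT-interacting protein (1.56 ± 0.608), and WIF1, a secreted Wnt inhibitor (1.52 ± 0.597), completed the 12.

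WIF1 illustrates the spread among gilts, with 313, 108, 132 and 32.4 CPM in the middle and 76.7, 64, 33.2 and 12.9 at the ends of gilts 201, 205, 801 and 803. Each gilt was higher in the middle, yet the middle of gilt 803 lay below the ends of the other 3 gilts. Stage 2 gilt 801 oocyte 4, the deepest library at 30486613 counts, held the most counts for 10 of these 12 genes, and the library with most counts held 29.0 to 46.8% of a gene's total. Without that oocyte the median change of the 12 was 1.83, against 1.95 with it. Weighting every oocyte equally lowered the change of each of the 12 but SLC25A13, which had 1.73. RAD1 and ELP2 then had 0.54, SLC17A1 0.78, TSPAN15 0.80, CD40 0.91 and DND1 0.92. In the means over gilts, stages 2 and 3 both lay above stages 1 and 5 for 12 of 12, but within single gilts they did so in 1 to 3 of 4 gilts, depending on the gene.

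**Figure D4:**
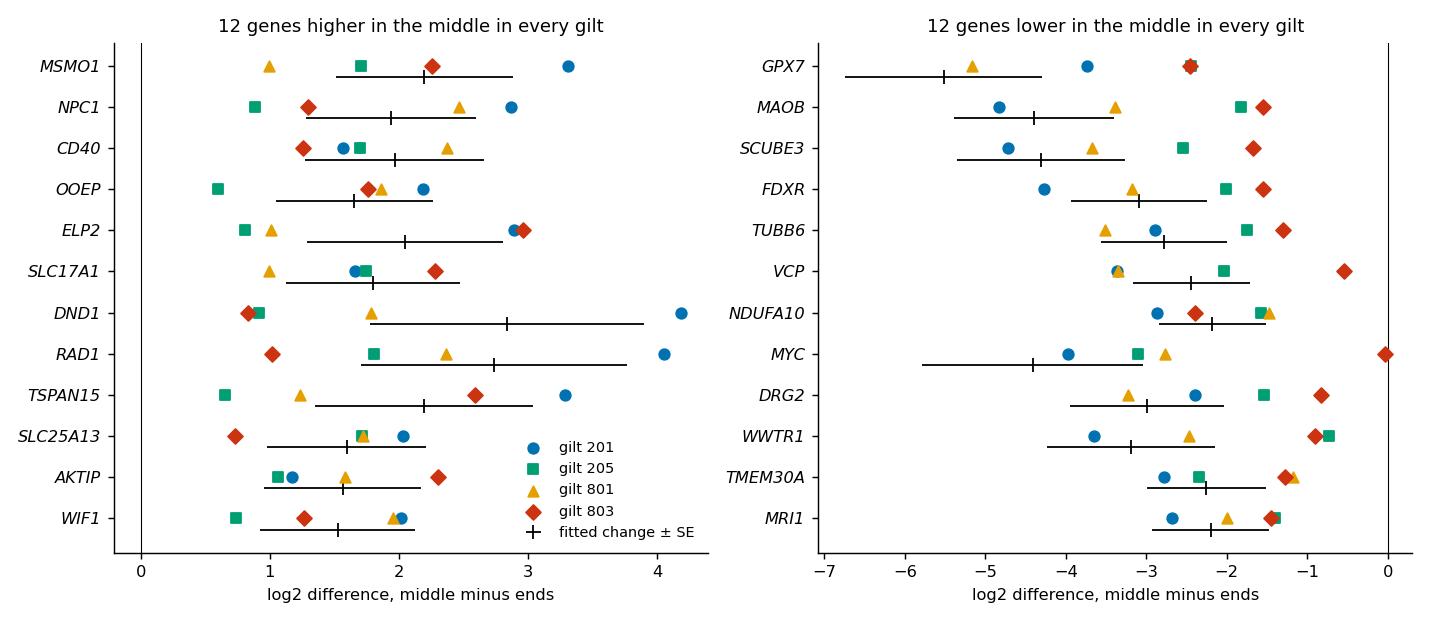
Difference of log2(CPM + 1) between middle and end sums in each gilt for the 12 genes of smallest p that were higher (left) and lower (right) in the middle of every gilt, with the fitted log2 change and its SE beneath. Fitted changes run from 1.52 to 2.84 on the left and from -5.52 to -2.18 on the right.

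Genes lower in the middle had larger fitted changes, from -5.52 to -2.18 for the 12 of smallest p. Some had middle sums near 0 CPM, GPX7 and MYC among them, where the size of a fitted ratio is poorly fixed. Their differences of log2(CPM + 1) in single gilts were smaller than the fitted changes. These ran from -5.16 to -2.44 for GPX7 and from -3.97 to -0.03 for MYC. GPX7, a peroxidase of the endoplasmic reticulum, led the 12. It had 0.86, 0.00, 0.37 and 6.14 CPM in the middle of gilts 201, 205, 801 and 803 and 23.8, 4.44, 48.1 and 38.1 at the ends, a fitted change of -5.52 ± 1.23 (edgeR unadjusted p = 0.000587). Every gilt was lower in the middle, and the middle of gilt 803 was the only middle sum above the lowest end sum. VCP, the ATPase that pulls ubiquitin-tagged proteins out of membranes and complexes, had 13.6, 9.05, 10.9 and 126 CPM in the middle and 149, 40.2, 120 and 185 at the ends, a change of -2.44 ± 0.727. The difference was wide in gilts 201, 205 and 801 and narrow in gilt 803.

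Mitochondrial proteins in this group were MAOB, which oxidises monoamines (-4.40 ± 0.991), FDXR, which passes electrons to the P450 enzymes of steroid synthesis (-3.09 ± 0.842), and NDUFA10, a complex I subunit (-2.18 ± 0.665). MYC, the growth-driving transcription factor, had 0.06, 0.07, 2.34 and 105 CPM in the middle and 15.7, 8.18, 21.8 and 107 at the ends, so gilts 201, 205 and 801 were low in the middle while gilt 803 was nearly level, and the change was -4.41 ± 1.38. WWTR1, the Hippo pathway co-activator also called TAZ, had -3.19 ± 1.04 and TUBB6, a beta-tubulin, -2.77 ± 0.782. SCUBE3, a secreted glycoprotein, had -4.31 ± 1.05, DRG2, a GTP-binding protein, -2.99 ± 0.954, TMEM30A, a subunit of lipid flippases, -2.25 ± 0.74, and MRI1, an enzyme of methionine salvage, -2.20 ± 0.724. For 11 of the 12 the library with most counts was one of stage 5 gilt 803 oocytes 1 and 2, both granulosa-rich. Without the granulosa-rich libraries the 12 changes ran from -7.06 for MYC to -0.02 for NDUFA10, with a median of -1.91 against -3.04, and with every oocyte weighted equally GPX7 had -1.59 and MYC -0.63. Over the gilts' means, stages 2 and 3 both lay below stages 1 and 5 for 9 of 12, and within single gilts in 1 to 4 of 4 gilts.

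Markers of the cells around the oocyte were lower in the middle by the fit, beside these genes. Granulosa and cumulus markers had 5 of 23 members positive and a median of -1.19, and the median was -3.12 in gilt 201, -0.24 in gilt 205, -0.54 in gilt 801 and 1.03 in gilt 803. It was -0.31 without gilt 201, -0.20 with no replicate block and -0.45 with every oocyte weighted equally. IHH, a hedgehog ligand of granulosa cells, had 0.38, 0.00, 0.01 and 0.25 CPM in the middle and 18.7, 39.7, 97.2 and 0.03 at the ends of gilts 201, 205, 801 and 803. Its counts thus lay almost wholly in the end sums of gilts 201, 205 and 801, and stage 1 gilt 205 oocyte 1 held 47.9% of its counts. FSHR, the receptor for follicle-stimulating hormone, had 2.79, 2.56, 10.2 and 117 CPM in the middle and 51.5, 15.8, 69.5 and 55.3 at the ends, lower in the middle in 3 gilts and higher in gilt 803, a change of -2.32 ± 0.949 that was 0.19 against stage 5 alone.

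Theca and stroma markers had 5 of 19 positive and a median of -2.12. In single gilts the median was -3.20 in gilt 201, -0.84 in gilt 205, -0.22 in gilt 801 and -0.06 in gilt 803. It was -1.23 without gilt 201 and -0.64 with every oocyte weighted equally. COL1A1, a fibrillar collagen, had 3.23, 32.3, 1.2 and 6.92 CPM in the middle and 734, 75.2, 9.61 and 61.7 at the ends, lower in the middle within each gilt, a change of -3.45 ± 1.00, with 55.4% of its counts in stage 1 gilt 201 oocyte 1. NR2F2, a nuclear receptor of theca and stroma, had -2.84 ± 1.06. Against stage 5 alone, without gilt 801, the medians were 0.48 for the granulosa list (19 genes) and 0.55 for the theca list (15 genes). Against stage 1 alone, with all gilts, they were -1.32 (22 genes) and -2.15 (18 genes). Over the middle oocytes summed theca and stroma markers had a median of 108 CPM, against 332 over the end oocytes.

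Blood, immune and endothelial markers had 7 of 19 positive and a median of -1.41, which turned to 0.04 without the granulosa-rich libraries. The median was also positive with limma voom (0.77), no replicate block (1.06), gilt-by-stage sums (0.71), equal weight per oocyte (0.16) and stage 5 alone (0.99). It stayed negative with DESeq2's Wald test (-1.57), against stage 1 alone (-1.23) and with any 1 gilt left out (-1.71 to -0.43). In gilt 803 it was 1.74. C1QB, a complement chain of macrophages, had 77.5% of its counts in stage 2 gilt 803 oocyte 3, and TEK, an endothelial receptor, had a change of 0.46 ± 0.59. TEK had counts in 41 of the 44 libraries, against 26 for PECAM1, 15 for TIE1, 11 for CDH5 and 9 for KDR. Whether its counts come from endothelial cells was not tested.

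Several housekeeping lists had medians below that of all genes. Cytosolic ribosomal protein genes had 2 of 43 positive and a median of -0.79. The medians per gilt were -1.83, -0.09, -1.42 and 0.22 in gilts 201, 205, 801 and 803. RPS23 had -1.11 ± 0.604 and RACK1, a ribosomal scaffold protein, -1.26 ± 0.685. Without the granulosa-rich libraries 34 of 43 were positive and the median was 0.31, so the direction turned. Nuclear-encoded oxidative phosphorylation, 13 of 55 positive with a median of -0.44, also turned, to 34 of 55 and 0.18. COX4I2, one form of subunit IV of respiratory complex IV, was an exception within that list at 1.66 ± 0.68, but gave -0.18 with every oocyte weighted equally. Redox defence had 8 of 29 positive (-0.59), with GCLM, of glutathione synthesis, at -1.78 ± 0.659, and a median of -0.04 without the granulosa-rich libraries. The 13 mitochondrially encoded genes had a median of 0.08 with COX1 at 0.24 ± 1.19 and ND1 at 0.22 ± 0.943.

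**Figure D5:**
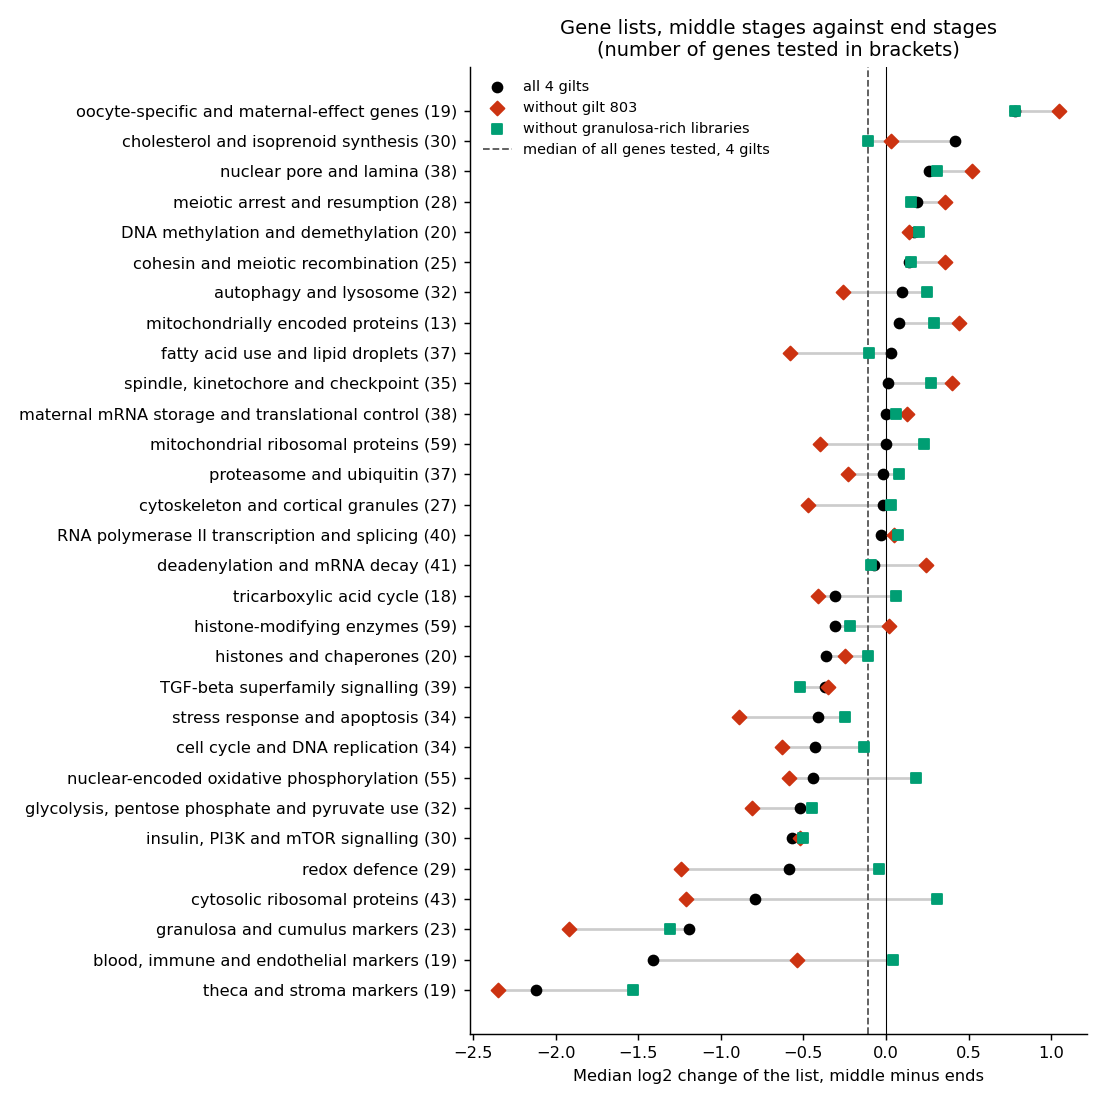
Median fitted log2 change, middle minus ends, of each of the 30 gene lists with all 4 gilts, without gilt 803 and without the 9 granulosa-rich libraries; the dashed line is the median of all genes tested, -0.11. The oocyte-specific list stands farthest right under each of the 3 settings, from 0.78 to 1.05, while the cholesterol, ribosomal and oxidative phosphorylation lists cross 0.

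Energy and growth pathways mostly had medians below that of all genes, with no member past the test. Glycolysis and pyruvate use had 12 of 32 positive (-0.52). Its aldolases diverged: ALDOA, the widespread form, had -1.82 ± 0.671 and ALDOC 1.13 ± 0.64. The tricarboxylic acid cycle had 8 of 18 positive (-0.31), with SUCLA2, a succinyl-CoA ligase subunit, at -2.64 ± 0.919 and FH, fumarase, at -1.73 ± 0.711. Insulin, PI3K and mTOR signalling had 10 of 30 positive (-0.57), TGF-beta superfamily signalling 16 of 39 (-0.37) and cell cycle and DNA replication 13 of 34 (-0.43), where TOP2A, a topoisomerase, had -1.78 ± 0.691 and CCND2, a D-type cyclin, -2.04 ± 0.934. Stress response and apoptosis had 12 of 34 positive (-0.41), with the immediate early genes FOS at -5.09 ± 1.74 and JUN at -2.41 ± 0.877. FOS had 0.54, 0.00, 1.93 and 211 CPM in the middle and 90.9, 3.24, 52.2 and 41.7 at the ends of gilts 201, 205, 801 and 803, which puts gilt 803 opposite to the rest.

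Lists near or above 0 were nuclear pore and lamina with 23 of 38 positive (0.26), autophagy and lysosome with 18 of 32 (0.10) and fatty acid use and lipid droplets with 19 of 37 (0.03). NDC1, which anchors the pore in the nuclear envelope, had 62.7, 43.2, 58.6 and 18.1 CPM in the middle and 13.5, 31.1, 33.8 and 7.31 at the ends, higher in the middle within each gilt, a change of 1.19 ± 0.653. ATG5, which conjugates to ATG12 in autophagosome formation, had 66, 19.9, 36.1 and 34 CPM in the middle and 4.28, 11.4, 10.3 and 12.3 at the ends, also higher within each gilt, a change of 1.96 ± 0.778, while ATG3, a conjugating enzyme of the same process, had -1.41 ± 0.902. PLIN2, the coat protein of lipid droplets, which are abundant in pig oocytes, had 0.90 ± 0.642. POLR2C, a subunit of RNA polymerase II, had 1.19 ± 0.628, and SRSF2, a splicing factor, -1.83 ± 0.634 with 55.8% of its counts in stage 5 gilt 803 oocyte 4.

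A stricter view of a peak asks that both middle stages lie outside both end stages in the same gilt. With counts summed per gilt and stage, 13 genes had stages 2 and 3 above the end stages in every gilt (0.095%) and 29 had them below (0.212%); in gilt 801 the only end was stage 1. Of the 13, 11 had a mean of at least 10 CPM: TSPAN3, RSL1D1, SEC11A, TNFAIP8, TADA2A, GFPT1, ALDOC, KLHL7, ZNF592, CDKN2AIP and DHX16, which were singled out by their values. TSPAN3, a tetraspanin, averaged 125 ± 20.4 CPM at stage 1, 405 ± 231 at stage 2, 415 ± 336 at stage 3 (SD, n = 4 gilts each) and 203 ± 95 at stage 5 (n = 3). CDKN2AIP, a binding partner of the tumour suppressor ARF, averaged 9.91 ± 5.25, 31.8 ± 6.51, 29.5 ± 7.28 and 15.2 ± 7.16 CPM at the same stages. Their fitted changes were 1.21 ± 0.59 and 1.47 ± 0.687.

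Of the 29 below, 4 reached 10 CPM: FLNA, STAG2, UBE2G2 and GPX7. FLNA, an actin cross-linker, averaged 57.0 ± 33.6 CPM in stage 1 and 43.8 ± 42.7 CPM in stage 5 oocytes, against 11.6 ± 15.5 in stage 2 and 23.3 ± 16.1 in stage 3 (SD over gilts), a fitted change of -2.66 ± 0.884. UBE2G2, a ubiquitin-conjugating enzyme of the endoplasmic reticulum, averaged 16.7 ± 3.78, 8.46 ± 7.15, 9.74 ± 4.45 and 24.9 ± 2.31 CPM in stages 1, 2, 3 and 5. The genes of both groups were picked for this shape, so the shape itself is no finding, and none of them passed the test. How many genes would take it by chance was not tested.

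Whether edgeR called single genes changed when gilt 803 was left out, though not under every setting. Without gilt 803 edgeR called 75 of 13956 genes, 73 lower in the middle (0.523%) and 2 higher (0.0143%). The higher genes were BMP15, with a change of 3.16 (adjusted p = 0.0322 by edgeR), and OMA1, with 2.72 (adjusted p = 0.0471 by edgeR). OMA1 is a protease of the inner mitochondrial membrane. OMA1 had 52.6, 110, 75.4 and 4.48 CPM in the middle and 9.86, 12.6, 12.3 and 6.44 at the ends of gilts 201, 205, 801 and 803, so only gilt 803 went the other way. On simulated counts of these 3 gilts edgeR called 0 unchanged genes. Each simulated gene was drawn independently, without swings shared by many genes of a library, so the simulation cannot show whether the 75 calls include false ones. The 73 lower genes included markers of follicle cells: IHH at -9.88 (adjusted p = 0.000127 by edgeR), FSHR at -3.19 (0.0442) and ACTA2, a smooth muscle actin of theca and stroma, at -5.43 (0.0338). They also included FOS, MYC, GPX7, MAOB, VCP, FLNA, PRDX6, a peroxidase, PGRMC1, a progesterone-binding membrane protein, and CCN2, a matrix growth factor, of which the last 3 were chosen after their values were seen. Of 71 lower genes with a value in the test of 4 gilts, 60 were higher in the middle than at the ends of gilt 803, as were 52.6% of all genes tested.

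These calls rested on few libraries. Stage 1 gilt 201 oocyte 1, stage 1 gilt 205 oocyte 1 and stage 1 gilt 801 oocyte 3 carried summed granulosa and cumulus markers of 6422, 5322 and 12554 CPM and together held a median of 84.9% (26.1 to 100%) of each lower gene's end-side counts in gilts 201, 205 and 801. The same 3 of 13 end libraries held 19.8% of all counts and 51.2% of those that were not mitochondrially encoded. With stage 1 gilt 205 oocyte 1, stage 1 gilt 801 oocyte 3 or stage 2 gilt 801 oocyte 4 left out, 0 genes were called, and over the 28 oocytes left out in turn the count lay between 0 and 225 (median 46.5). Its highest values were 225 without stage 3 gilt 801 oocyte 1 and 120 without stage 3 gilt 205 oocyte 1. BMP15 was called in 15 of the 28 refits, with changes from 2.48 to 3.78, and OMA1 in 5 of 28, with changes from 2.28 to 2.95. Neither was called with DESeq2 size factors, with no replicate block, with either end alone, with every oocyte weighted equally or without the granulosa-rich library of gilt 801. With all 4 gilts, 0 genes were called whichever of the 44 oocytes was left out.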

How the data were processed

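Values are the deposited raw counts of 55 oocytes, keyed by Ensembl identifier. StringTie 1.2.2, featureCounts, HISAT2 2.1.0 and Trim Galore 0.4.3 appear in the submitters' processing notes, without roles. No positions or sequences are printed, because the build is not given in the sources used here, nor is the annotation or the strandedness of counting; reads of overlapping or antisense genes may be mixed. Of 25880 IDs, 14857 matched a symbol. A second deposited table was not used here. Counts were summed per gilt and side (8 sums) and fitted with edgeR 4.0.16 (R 4.3.3; TMM factors 0.343 to 1.94, filterByExpr, glmQLFit, glmQLFTest; model gilt + side; 3 residual degrees of freedom; two-sided; Benjamini-Hochberg over 13679 genes, 11507 with a symbol; common biological coefficient of variation 0.971). The SE of a fitted change is its absolute value divided by the square root of the quasi-likelihood F, not an SE given by the model. Levels are CPM scaled by the TMM factors, stage levels come from a separate scaling, and differences use log2(CPM + 1). Levels of different genes are not per length and are not compared. limma 3.58.1 and DESeq2 1.42.0 were alternatives. Library measures used exact sign-flip permutation of the gilts' differences, and genes detected were counted at 1109755 counts, which 3 oocytes did not reach.

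The block is the animal named in the labels. As a check, the deviations of the 2 sums of a gilt from the side means correlated at -0.154 (gilt 201), 0.285 (205), 0.0846 (801) and 0.0433 (803), against -0.0165 between gilts. The fits were tested on simulated data. Named genes are the 12 of smallest p in each direction by the rule in the report, the 2 of smallest p of each of the 30 lists with at least 10 CPM, and GDF9, BMP15, ZP3, DNMT1, DNMT3A, CCNB1, MOS and COX1; other genes were chosen from their values, and a few genes are not reported here. The comparison, lists and rule were chosen with earlier results of these data known. Reads carried no molecular identifiers, so PCR copies make the depth overstate the precision.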

Additional observations from a re-analysis of the deposited data

Results flagged for a closer look

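The 4 gilts' values on each side, and their differences between the sides for the library measures, were searched for a gilt standing apart from the other 3. Of 189 such sets of 4 values, 14 had one. About 1 in 20 would be expected of independent values from a normal distribution. These sets share the same 4 gilts, and most hold levels of genes chosen from these data. That rate therefore cannot show whether 14 is more than chance gives. In 9 of the 14 the gilt was 803 and the value a gene's level.

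In the middle, gilt 803 was low for OOEP (29.2 CPM against 199 to 236 in the other gilts), CCNB1 (58.9 against 180 to 219), CHAF1B, a chromatin assembly subunit (5.06 against 42.1 to 53.4), and ACSL5, an acyl-CoA synthetase (6.0 against 17.6 to 18.3). It was high there for VCP (126 against 9.05 to 13.6), DRG2 (27.7 against 0.27 to 1.02) and SCUBE3 (12.2 against 0.33 to 0.70). At the ends gilt 803 was low for ZP3 (970 against 7030 to 9833 CPM) and AKTIP (15.1 against 30.9 to 35.2). Its mean log2 CPM of granulosa and cumulus markers at the ends was 11.4, against 8.19 to 8.5 in the other gilts, and its middle-minus-end difference of blood, immune and endothelial markers was 2.50 log2 units, against -0.41 to -0.14.

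The other 3 values belonged to gilts 201, 205 and 801. BMP15 at the ends of gilt 201 was 49.2 CPM against 90.3 to 97.1, PSMC6, a proteasome ATPase, at the ends of gilt 205 was 9.95 CPM against 61.3 to 78.1, and the middle-minus-end difference of the oocyte-specific genes in gilt 801 was 1.13 log2 units against 0.19 to 0.33.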

How the results depend on the processing

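The count of 0 called genes held with DESeq2 size factors, limma voom, no replicate block (0 calls; 519 at an unadjusted p under 0.05), gilt-by-stage sums, the quadratic term over 5 stages, equal weight per oocyte, either end alone, and without mitochondrially encoded genes or granulosa-rich libraries; it was 245 with DESeq2's Wald test, 8 without a low-count filter, 0 to 75 over gilts left out and 0 with each oocyte left out. The 75 calls without gilt 803, an alternative examined further after seeing the data, became 0 with no replicate block, 129 without a filter, 29 with DESeq2 size factors, 175 with limma voom, 1026 with DESeq2, 3 with stage 1 as the only end, 0 with stage 5 as the only end, 0 without the granulosa-rich library of gilt 801, 0 with equal weight per oocyte and 0 to 225 with 1 oocyte left out. The cause was not tested.

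Of 1308 refits of named genes, 34 turned the sign. Without granulosa-rich libraries PABPC1 was 0.11, RPS23 0.38, ATG3 0.75 and DNMT3A -0.08; against stage 5 alone PABPC1 was 0.01, RPS23 0.04, FSHR 0.19 and DNMT3A -0.49; against stage 1 alone C1QB was -0.15. With gilt-by-stage sums COX4I2 was -0.90, ND1 -0.06, COX1 -0.01, ZP3 -0.12 and DNMT3A -0.10, and in the quadratic fit ND1 was -0.09, COX1 -0.08, ZP3 -0.07 and DNMT3A -0.05. Equal weight gave COX4I2 -0.18, ACSL5 -0.14 and C1QB -0.18; no replicate block gave GADD45A 0.84, FOS 0.18 and DNMT3A -0.43; limma voom gave DNMT3A -0.23. With 1 gilt left out in turn, ZP3 ran from -0.30 (without gilt 205) to 0.92 and was -0.05 without 201, DNMT3A from -0.59 (201) to 0.87 and was -0.11 without 801, MOS from -0.17 (201) to 1.12, ND1 from -0.33 (205) to 0.74, COX1 from -0.36 (205) to 0.77, and C1QB from -0.54 (803) to 2.71 and was -0.26 without 801.

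Library differences turned sign without granulosa-rich libraries for the log10 total (-0.152), mitochondrial percent (-4.88) and oocyte-specific level (-0.146); with medians for the theca (0.043) and blood (-0.12) levels; and against stage 1 alone for blood (-0.914). With 1 gilt left out the mitochondrial difference ran from -0.976 (without gilt 205) to 10.3 percentage points, the blood difference from -0.285 (without gilt 803) to 0.686 log2 units, and the difference in genes detected at equal depth from -1500.0 (without gilt 803) to 15.8 (without gilt 205).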
